A study of Mus musculus with 2 samples.

Results

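Bitter taste receptors are the products of the Tas2r genes, and in the mouse most of these genes lie in 1 dense cluster toward the end of chromosome 6. The 10 genes described here lie outside it. They are Tas2r118, Tas2r137, Tas2r108, Tas2r138, Tas2r139, Tas2r144, Tas2r143, Tas2r135 and Tas2r126, which lie on chromosome 6 ahead of it, and Tas2r119 on chromosome 15. They were chosen by name and position and make up 10 of the 34 Tas2r genes listed in either count table, which together list 21888 genes. Of the other 24, 23 are in the cluster, and Tas2r134, on chromosome 2, was not chosen. The levels were read in single taste cells sorted by green fluorescence from adult α-gustducin-GFP mice on a C57BL/6J background, in which cells that make α-gustducin carry the fluorescent protein. Fungiform papillae (FP), on the front of the tongue, gave 1 library of 29 barcodes, and the circumvallate papilla (CV), at its back, gave 1 library of 61. Kept cells had more than 500 genes and Gnat3, the gene of α-gustducin, above 0.9 on the scale ln(1 + counts per 10000), which left 21 FP and 32 CV cells. All cells of both libraries therefore carry the same transgene and were picked by 1 taste cell protein. The sources used here do not tell from how many animals each library came.

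A Tas2r gene encodes a G protein-coupled receptor that is read from a single coding exon. In type II taste cells the receptor acts through gustducin, whose βγ subunits activate the phospholipase Plcb2. Calcium released through the IP3 receptor Itpr3 then opens the cation channel Trpm5, and the cell releases ATP through Calhm1 channels to the taste nerve. Mouse receptors differ in the compounds they recognise and in how widely they are tuned, and 1 cell can carry several of them. Tas2r118 is the mouse counterpart of human TAS2R16, a receptor for β-glucopyranosides such as salicin. Tas2r108 corresponds to human TAS2R4 and answers to denatonium, Tas2r138 corresponds to TAS2R38, known for tasting phenylthiocarbamide, and Tas2r119 corresponds to TAS2R1.

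The 10 genes form small groups along the genome. In GENCODE release M21 on mm10, Tas2r118 stands alone on chromosome 6, on the minus strand from 23969161 to 23970060. Tas2r137 (40491233 to 40492305, plus strand) is separated from Tas2r108 (40493529 to 40494541, plus strand) by 1.22 kb. Tas2r138 follows at 40612315 to 40613310 on the minus strand, then Tas2r139 (42140936 to 42141895) and Tas2r144 (42215328 to 42216287), both on the plus strand. The last group on chromosome 6 is Tas2r143 (42400238 to 42401119), Tas2r135 (42405434 to 42406526) and Tas2r126 (42434535 to 42435464), all on the plus strand with gaps of 4.31 and 28.008 kb. Tas2r119 lies on chromosome 15 from 32177289 to 32178294 on the plus strand. Each of the 10 has 1 annotated exon of 882 to 1093 bases.

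These genes are further from their relatives in sequence than the other receptors, which bears on how far reads could be shared between them. Aligned end to end with the other 33 Tas2r genes, each had a closest relative at 59.8 to 70.2% identity (median 61.9%), with the highest value for Tas2r143 against Tas2r134. For the other 24 Tas2r genes the closest relative was at 63.4 to 86.3% (median 70.2%). No stretch of 50 bases of the 10 genes occurred in an annotated transcript of another gene, over 141767 transcripts, while 4 of the other 24 had such a stretch. How reads that match several genes were assigned is not given in the sources used here.

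Upstream of the coding start, most of the 10 genes share a short sequence. RefSeq windows of 300 bases (250 before to 50 after the annotated start, GRCm38.p6, the assembly of mm10) were found for all 10, and the 8 letters ATTTGCAT, the octamer known as a recognition sequence of POU-domain proteins, stood in 6 of them on either strand (ATGCAAAT on the opposite one). The taste cell regulator Pou2f3 is a POU-domain protein. Stretches of 30 bases around the match are shown because they can be compared by eye, each 5′ to 3′ on the gene's strand, with the match in capitals.

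Tas2r118: gtgtaaggaggATTTGCATccacaaagaag
Tas2r137: cactgggcattATTTGCATctcaacaaaga
Tas2r108: atccttgaaagATTTGCATctcagtaaaag
Tas2r144: atcctttcataATTTGCATatcaaacctct
Tas2r135: gccttggcaatATTTGCATctgttctgaag
Tas2r126: gcccgggaaatATTTGCATcatatctgagc

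Another 3 genes carry only the last 7 of these letters, TTTGCAT, which the octamer contains. In Tas2r119 they are on the opposite strand.

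Tas2r138: tTTTGCATcatccaagaggtaggccgatca
Tas2r139: ataattctgtcgTTTGCATctctatattta
Tas2r119: aaaaATGCAAAagctgtcataaggcacagt

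Tas2r143 had neither in its window. Among all 32851 RefSeq windows, 1.74% held the octamer and 4.63% the 7 letters. How far the starts of those windows lay from a coding start was not examined. Of the 20 other Tas2r genes with a window, 1 held the octamer (Tas2r107) and 3 the 7 letters (Tas2r102, Tas2r107 and Tas2r134). For 19 of these 20 the annotated start lay within 1 base of the coding start, and Tas2r107 was not among them. Of those 19, 0 held the octamer and 2 the 7 letters. In the 6 genes with the octamer the 7 letters began 123 to 193 bases before the annotated start, and in all 9 they began 123 to 249 bases before it, as the map of matches shows. That start lay within 1 base of the coding start for each of the 10 genes, so the true start of transcription is not known from it. The motif was searched after the sequences had been read, and a match of letters is not a measured binding site.

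**Figure D1:**
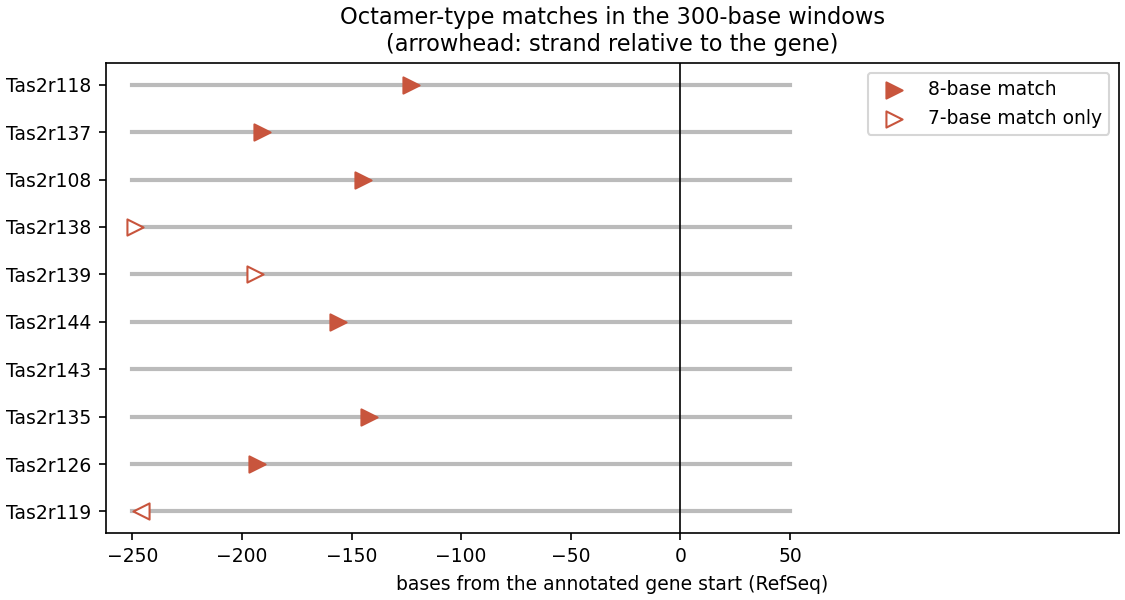
Position of the 8-base match (filled arrowheads) or 7-base match (open arrowheads) in the 300-base window of each gene. The x axis is the distance in bases from the annotated start, grey lines are the windows, and the arrowhead points along the strand of the match. Matches stand in 9 of 10 windows, between 123 and 249 bases before the start, and only that of Tas2r119 points the other way.

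Kept FP cells held 193718 to 3190340 counts (median 1141644) and kept CV cells 32726 to 3447628 (median 543963), with sums of 22646953 and 29535917. CV therefore held more shallow cells, with 7 under 100000 counts. Of 7 type II taste cell markers, which include the Gnat3 used to keep the cells, 7 were within 2-fold between the papillae. Of 8 type III markers 5 were at 0 counts in FP and 3 in CV (Pkd2l1, Car4 and Ddc in both). Their sum was 0 to 24.4 CPM in FP cells (median 1.91) and 0 to 246 CPM in CV cells (median 6.43), with Otop1 at 0 and 24.1 CPM and Ncam1 at 2.03 and 13.9 CPM pooled. Summed keratinocyte markers were 87.2 to 527 CPM (a gene's counts per 1000000 counts of the cell) in FP cells, with a median of 118.5, against 0 to 161 CPM in CV cells, with a median of 0. The part of either list in the differences below was not tested. The libraries shared 0 barcode numbers, but 6 CV barcodes had adjoining numbers, 5 of them kept, of which the deepest held 1350869 counts and the others 54413 to 121188. Whether they are separate cells was not tested. With 1 library per papilla no replicate check was possible and no difference between papillae was tested. Every interval is a 95% interval for counting error only, which is too narrow if the tables count PCR copies.

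A few counts of these receptors can be stray. Among 7 FP barcodes that were rich in keratin transcripts and failed the Gnat3 limit, with a median total of 1679949 counts, 4 had a count of any of the 10 genes. No gene exceeded 2 counts or 0.625 CPM there. A gene was counted as on from 50 CPM upward, a limit set with the data known and far above that stray level. It leaves out FP values well above stray counts, such as 58 counts of Tas2r108 at 41.7 CPM in 1 cell. By the 50 CPM limit 0 of these 7 barcodes were on. A floor of 3 barcodes puts the limit of that share at 42.9%, with 40.96% as the upper Clopper-Pearson bound. In the shallowest cells that level takes few counts, so values of 1 or 2 counts are not read as expression below.

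The 10 receptors were a larger and more varied group in CV than in FP. Pooled over FP cells they summed to 61.7 CPM (exact Poisson interval 58.5 to 65.0), and over CV cells to 399 CPM (392 to 406), which is a CV over FP ratio of 6.47 (6.12 to 6.84). For the other 24 Tas2r genes the sums were 778 and 1664 CPM, a ratio of 2.14 (2.103 to 2.177). The 10 genes thus gave 7.35% (6.98 to 7.73) of all Tas2r counts in FP cells and 19.3% (19.04 to 19.7) in CV cells. In FP, 1 gene was on in any cell, Tas2r118, and it supplied 84.9% of the 10 genes' counts. In CV, 9 of the 10 were on in at least 1 cell, and Tas2r118 supplied 43.9%. Of the other 24 Tas2r genes, 13 were on in at least 1 FP cell and 20 in at least 1 CV cell. The CV count of the 10 genes was thus near that of the family, and the FP count was lower.

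A comparison on the scale log2(CPM + 10) took genes with 10 or more pooled CPM in at least 1 papilla, and 8 of the 10 receptors met this. CV was higher by 2-fold or more for 8 of these 8, and FP for 0. For all 10918 genes at that level the shares were 21% higher in CV and 17% higher in FP. As a log2 ratio of FP over CV, the median was -1.62 for the 8 genes, with a range of -2.52 to -1.36, against -0.05 for all genes. With sums under 3 pooled counts set to 3 and no added CPM, the median of the 8 was -6.73. For the 19 other Tas2r genes at that level, CV was higher by 2-fold or more for 13 and FP for 0, with a median of -1.25. Since the 10 CPM limit was mostly met through CV, the count over these 8 genes describes them and is no evidence of its own. Leaving out the cell with most counts of each gene left 5 of the 8 at 2-fold, and Tas2r139, Tas2r143 and Tas2r126 then fell short at -0.72, -0.60 and -1.0.

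Tas2r118 was the most widespread of the group. In FP it was on in 6 of 21 cells (28.6%, Clopper-Pearson interval 11.3 to 52.2), at 247, 155, 127, 94.8, 65.9 and 52.7 CPM, and another 5 cells had 1 count each. In CV it was on in 15 of 32 cells (46.9%, 29.1 to 65.3), from 74.5 to 652 CPM with a median of 271. The ranges overlapped: 2 of the 6 FP values lay below the lowest CV value, and the 9 highest CV values were above every FP value. Without the shallow barcodes of adjoining numbers, which hold 2 of these CV values (625 and 271 CPM, from 34 and 17 counts), 13 of 28 CV cells had the gene on.

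Between clear carriers and empty cells of Tas2r118 lay few others. In FP no cell had more than 1 and fewer than 69 counts, so carriers stood apart from the rest. In CV, cells that missed the 50 CPM level had up to 46.7 CPM, which in that shallow cell was 2 counts, and the next held 13, 39, 3 and 20 counts at 31.9, 28.9, 11.3 and 8.13 CPM. The median over all cells was 0.762 CPM in FP and 39.3 CPM in CV. Pooled, FP had 52.4 CPM (49.4 to 55.4) and CV 175 CPM (171 to 180), a ratio of 3.35 (3.14 to 3.57), the smallest ratio of the genes higher in CV.

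Tas2r137 and Tas2r108, 1.22 kb apart on the same strand, had opposite orders in the papillae. Among kept cells Tas2r137 was seen in FP alone. It had 17 counts (35.6 CPM), 17 counts (14.6 CPM) and 7 counts (4.14 CPM) in 3 FP cells, a single count in 3 more, and 0 counts in all 32 CV cells. No cell reached 50 CPM, so the gene was low wherever it was seen, and it was on in 0 of 21 FP cells, which by the exact interval allows up to 16.1%. The pooled FP level was 1.94 CPM (1.41 to 2.61), at least 19.1-fold higher than CV by a floor of 3 pooled counts, with an exact lower limit of 14.9.

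Tas2r108, which answers to denatonium, was strong in few CV cells and weak in more FP cells. In CV it was on in 5 of 32 cells, at 231, 203, 132, 115 and 112 CPM, with 19.7 CPM in a sixth and 1 or 2 counts in another 2. In FP 7 of 21 cells had 7 to 58 counts, at 4.70 to 41.7 CPM, and none reached 50 CPM. The 5 highest CV values stood above every FP value, and the others lay within the FP range or below it. Pooled, FP had 5.96 CPM (135 counts) and CV 40.4 CPM (1194 counts), a ratio of 6.78 (5.67 to 8.16). Of the 3 FP cells with 7 or more counts of Tas2r137, 2 also had Tas2r108, at 7 and 10 counts.

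Tas2r138, counterpart of the phenylthiocarbamide receptor, was close to a CV gene in these cells. It was on in 6 of 32 CV cells, at 598, 334, 262, 185, 69.0 and 56.3 CPM. Another 4 CV cells had 19 to 60 counts at 8.52 to 32.2 CPM, so levels were graded. In FP all 12 counts came from 1 cell, at 8.62 CPM, and that cell also had the highest FP value of Tas2r108. Pooled, FP had 0.530 CPM and CV 50.4 CPM, a ratio of 95.2 (54.3 to 185). The 334 CPM value rested on 33 counts in a barcode of 98657 counts from the run of adjoining numbers.

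Tas2r139 and Tas2r144, neighbours on the plus strand, were each strong in 2 or 3 CV cells. Tas2r139 was on in 2 CV cells, at 162 CPM (178 counts) and 148 CPM (285 counts), and the other 30 held 1 count in all. Both of its cells, of 1100195 and 1922250 counts, also had Tas2r118 on, as did 15 of all 32 CV cells. Tas2r144 was on in 3 CV cells, at 281, 210 and 83.1 CPM, and 2 more had 7 counts and 1 count.

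In FP, Tas2r139 had 1 count in the pooled 22646953, and Tas2r144, which the FP table does not list, was taken as 0. Pooled CV levels were 15.7 CPM (464 counts) for Tas2r139 and 37.8 CPM (1117 counts) for Tas2r144. The ratio for Tas2r139 was 356, with a counting interval of 63.5 to 14082, and rests on that 1 count, so it does not rank the gene above its neighbours. The level of Tas2r144 in CV was at least 285-fold higher by a floor of 3 pooled counts (exact lower bound 232). Since each sum came from 2 or 3 cells, leaving out the top cell moved the log2 ratio of Tas2r144 to -1.75 from -2.26.

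Tas2r143, Tas2r135 and Tas2r126 stand in a row on the plus strand and were seen together in part of their cells. At 3 counts or more of any of them there were 6 CV cells, all with at least 1155577 counts. Deep cells have more genes on, and whether these 3 genes share cells more often than other receptors do was not tested. The cell of 1191726 counts held all 3, with Tas2r143 at 294 CPM, Tas2r126 at 33.6 CPM and Tas2r135 at 21.8 CPM. In the cell of 1823119 counts Tas2r135 led at 354 CPM with Tas2r143 at 61.98 CPM, and in that of 3447628 counts Tas2r135 was at 97.5 CPM and Tas2r126 at 72.8 CPM. The leading gene of the row thus differed between the cells that held more than 1.

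The other 3 cells held 1 gene of the row each at this level. They had Tas2r126 at 202 CPM, Tas2r135 at 82.2 CPM and Tas2r143 at 16.6 CPM. Over all CV cells, 3 of these 6 held 2 or more of the row at 3 counts or more, and 2 cells had 2 of them on at 50 CPM. Tas2r118 was on in 5 of the 6 and at 28.9 CPM in the other, against 15 of all 32 CV cells. The 6 cells were all deep, with at least 1155577 counts. Of the 14 CV cells with at least 1000000 counts, 13 had a receptor of the group on. Whether Tas2r118 shares cells with the row more often than depth alone would give was not tested.

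In FP these genes had few counts. Tas2r143 and Tas2r135 were not listed and were taken as 0, and Tas2r126 had 12 counts (8.17 CPM) in 1 cell and 1 or 2 counts in 4 more. Pooled CV levels were 16.8 CPM for Tas2r143, 37.99 CPM for Tas2r135 and 17.9 CPM for Tas2r126. By the floor of 3 pooled counts Tas2r143 was at least 127-fold and Tas2r135 at least 287-fold higher in CV, with exact lower limits of 103 and 233. The ratio for Tas2r126 was 21.3 (13.5 to 35.7).

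Tas2r119, the gene on chromosome 15, was the rarest of those found in CV. It was on in 1 CV cell, at 179 CPM (123 counts), and 2 more cells had 47 and 25 counts at 21.1 and 12.9 CPM. The FP table does not list it, and it was taken as 0 there. The pooled CV level of 6.64 CPM was at least 50.1-fold higher than FP by that floor (exact lower bound 40.4), and it lay under the 10 CPM limit of the comparison above.

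Per kilobase of exon, the pooled CV levels spanned a wide range. Tas2r118 led at 195 CPM per kb (190 to 200), followed by Tas2r138 at 50.6 (48.1 to 53.3). Tas2r108 at 39.9 (37.7 to 42.2) and Tas2r144 at 39.4 (37.1 to 41.8) did not differ beyond counting error. Tas2r135 came next at 34.8 (32.8 to 36.9), with Tas2r126 at 19.3 (17.7 to 20.97), Tas2r143 at 19.04 (17.4 to 20.8) and Tas2r139 at 16.4 (14.9 to 17.9), whose neighbouring intervals overlap. Tas2r119 was at 6.60 (5.71 to 7.59) and Tas2r137 at 0 (0 to 0.116). In FP the order was Tas2r118 at 58.2, Tas2r108 at 5.88, Tas2r137 at 1.81, Tas2r126 at 0.902, Tas2r138 at 0.532 and Tas2r139 at 0.0460 CPM per kb. These orders depend on how much untranslated sequence is annotated. The exon of Tas2r135 has 1093 bases with 963 coding and that of Tas2r108 1013 with 891, against 960 with 957 for Tas2r144. Before division by length, Tas2r135 and Tas2r144 were at 37.99 and 37.8 CPM, so their order per kilobase is not read as a difference in level. With few cells behind most of these sums, the orders describe these 2 libraries only.

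At 50 CPM or more, 13 CV cells carried more than 1 of the 10 receptors and 0 FP cells did. Below that level some FP cells held several, such as the cell of 1391768 counts with 132 counts of Tas2r118, 58 of Tas2r108 and 12 of Tas2r138. In FP 6 of 21 cells had at least 1 on (28.6%, 11.3 to 52.2), all by Tas2r118, and in CV 20 of 32 did (62.5%, 43.7 to 78.9). Of the 20 CV cells, 7 had 1 on, 8 had 2, 4 had 3 and 1 had 4. The cell with 4 (3447628 counts) combined Tas2r118 at 151 CPM, Tas2r135 at 97.5 CPM, Tas2r126 at 72.8 CPM and Tas2r138 at 56.3 CPM. Tas2r138 and Tas2r144 shared 2 cells, one of them with Tas2r108 and the other with Tas2r118.

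Depth and the receptor call moved together. Among cells of at least 1000000 counts, 6 of 13 in FP (46.2%, 19.2 to 74.9) and 13 of 14 in CV (92.9%, 66.1 to 99.8) had 1 of the 10 genes on. Below that depth the counts were 0 of 8 in FP, for which a floor of 3 cells puts the limit at 37.5%, and 7 of 18 in CV (38.9%, 17.3 to 64.3). With so few shallow FP cells, a difference between the papillae below that depth was not detectable. With each cell thinned to 71770 counts, which left out 6 CV cells, the FP share was 23.8% and the CV share 73.1%. With 1 count as the rule the order turned, with 80.95% in FP and 75% in CV, a rule that also takes stray counts. At 3 counts or more the shares were 52.4% in FP and 71.9% in CV, and at 10 counts or more 52.4% and 68.75%.

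Cells with a receptor of the group were deeper and had higher median levels of Gnat3 and Trpm5 in both papillae. The median total was 1173651.5 counts in CV cells with 1 of the 10 on and 145831.5 in those without, and 1540316.5 and 914630 in FP. Median Gnat3 was 4830 CPM with and 1178 CPM without in CV, and 6568 and 4278 CPM in FP. Trpm5 followed at 1899 and 266 CPM in CV and 2370 and 1283 CPM in FP. Their mitochondrial share was lower, with medians of 11.5% with and 23.4% without in CV and 10.2% and 15.1% in FP. Plcb2 was at 1589 and 411 CPM in CV but at 2183 and 2946 CPM in FP, so it did not share that order. Gnat3 served to sort and keep the cells, and the part of depth and mitochondrial share in these differences was not tested.

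Most cells with a receptor of the group also had another Tas2r gene on, as did most CV cells in general. In CV this held for all 20 such cells, with a median of 5.5 others (1 to 13), and for 8 of the 12 cells without 1 of the 10 on. In FP it held for 5 of 6 cells and for 7 of the 15 without, and the sixth, of 1688865 counts, had Tas2r118 at 247 CPM, 86.9% of its Tas2r counts. A gene of the group was the highest Tas2r in 1 FP cell with a receptor on and in 5 CV cells, namely Tas2r118 in 3 and Tas2r138 in 2. Of these 5 cells, 2 were shallow barcodes of the run of adjoining numbers (54413 and 98657 counts). In the CV cells the 10 genes gave 4.77 to 89.5% of a cell's Tas2r counts, with a median of 23.9%.

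The sweet and umami subunit Tas1r3 was found among these cells too. It was on in 7 CV cells, of which 6 had 1 of the 10 genes on (85.7%, 42.1 to 99.6), and in 8 FP cells, of which 2 did (25%, 3.19 to 65.1). Over all kept cells the shares with 1 of the 10 on were 62.5% and 28.6%, within those intervals.

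**Figure D2:**
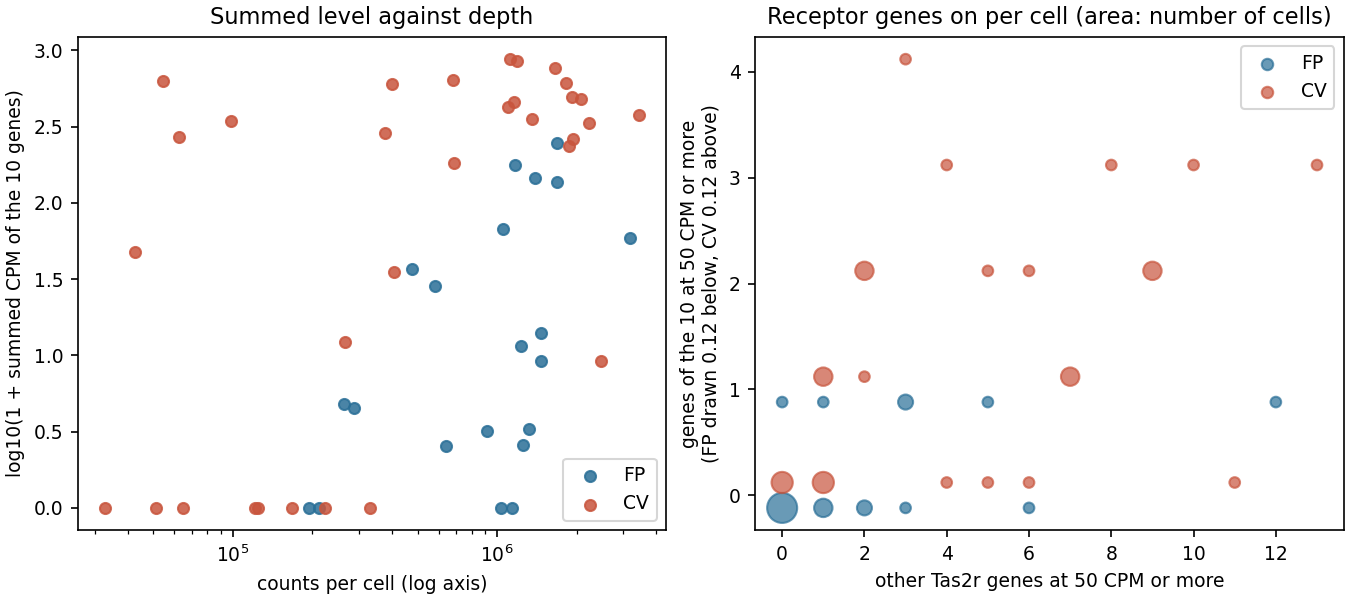
Left, summed level of the 10 genes, as log10(1 + CPM), against total counts (log axis) in each kept cell. Right, number of the 10 genes on against the number of other Tas2r genes on, with point area for the number of cells. At 50 CPM or more, FP cells hold 0 or 1 of the 10 genes and CV cells 0 to 4.

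Of all Tas2r genes, the one whose on cells in CV overlapped most with those of Tas2r118 was Tas2r105, a cycloheximide receptor of the dense cluster. They shared 10 cells of 15 and 14, a Jaccard index (shared cells over cells with either) of 0.526 over 32 cells. For Tas2r108 it was Tas2r121 (3 shared of 5 and 4 cells, 0.5), and for Tas2r138 it was Tas2r144, itself outside the cluster (2 shared of 6 and 3 cells, 0.286). These overlaps rest on few cells that share 1 library, and deep cells have more genes on.

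Over genes outside the Tas2r family, the summed level of the 10 genes was ranked against each gene in the cells of 1 papilla. In FP (21 cells, 2720 genes) the highest Spearman rho was 0.76 for Arpc1a, a subunit of the actin-nucleating Arp2/3 complex, followed by Aldh3a2, Srp9 and Nelfe at 0.75 and Clic6 at 0.73. Genes per cell had 0.71, the sum of the other Tas2r genes 0.67 and total counts 0.55. In CV (32 cells, 2225 genes) Prom2, Dctn2, Eif3i and Mrpl54 were among the highest at 0.72, while the other Tas2r sum had 0.04, genes per cell 0.52 and total counts 0.48. No gene was among the named ones in both papillae. These values are descriptions, since all cells of a papilla share a library and the genes were picked as the highest of all those ranked.

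Most listed transduction genes downstream of the receptors were at like levels in both papillae. The list includes Gnat3, by which the cells were sorted and kept, so a like level of Gnat3 was favoured in advance. Of 12 listed genes 11 were in the tables (Calhm3 was not listed), 9 were within 2-fold, CV was higher by 2-fold or more for 2 (Calhm1 and Gna14) and FP for 0, with a median log2 ratio of 0.13. Against the 6.47-fold ratio of the 10 receptors, Plcb2 had an FP level of 2930 CPM and a CV level of 2129 CPM, and Itpr3 had 651 and 614 CPM. The POU-domain regulator Pou2f3 had 404 and 350 CPM. Within CV its median was 166 CPM in cells with 1 of the 10 on and 6.58 CPM in those without, and within FP 462 and 170 CPM. Such a gap in CV was not particular to Pou2f3, with Gng13 at 3679 and 92.7 CPM and Itpr3 at 558 and 12.7 CPM. Trpm4 and Calhm1 had medians of 0 in both sets of CV cells. These gaps stand beside the differences in depth and mitochondrial share given above, and their cause was not tested.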

How the data were processed

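The deposited tables hold counts per gene and barcode, whole numbers that were not normalized by the authors, as the values show. The submitters' processing notes name Seurat 2.3.4, Bowtie2 2.3.4.1, cutadapt 2.10 and build mm10. Reads were aligned to reference RNA and counts adjusted for sequencing errors, per the series design. The sources used here do not say whether counts are molecules or reads. The authors state limits on genes, mitochondrial and ribosomal RNA and Gnat3, and the limits on genes and Gnat3 were applied, the latter read as a natural logarithm. Counts of kept cells were summed per library and expressed as CPM, with a gene missing from a table taken as 0. No doublet caller was run on so few cells. Intervals are exact Poisson, conditional binomial or Clopper-Pearson (SciPy 1.17.1), and alignments used Biopython 1.88. A fold against 0 counts uses a floor of 3 pooled counts. No p-value was computed, since each papilla has 1 library. Computation was tested on simulated data. All 10 genes are named; others were named as the Tas2r gene with the highest overlap for members on in 5 or more CV cells, the 5 genes of highest rho among those on in at least 25% of cells, and members of the transduction and marker lists. One gene that met these rules is not reported here. The genes and lists were chosen with earlier results of these data known. Alternatives were other cell filters, scalings, depths, pseudocounts and on levels. All 10 genes matched the RefSeq window table.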

Additional observations from a re-analysis of the deposited data

Results flagged for a closer look

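Barcodes outside the kept set held 4 strong values of these receptors, all in CV. The 0.625 CPM reached in keratin-rich FP barcodes is no measure of stray counts for them, since 1 count in a shallow barcode exceeds it. Only 1 CV barcode was keratin-rich, with 157346 counts in total and 0 counts of the 10 genes. In a CV barcode of 133973 counts with 476 genes and 93.5% mitochondrial counts, Tas2r118 was at 888.239 CPM (119 counts). Tas2r118 was at 6031.52 CPM (279 counts) in a CV barcode of 46257 counts that failed the Gnat3 limit, the highest level of any of the 10 genes in any barcode. Tas2r138 was at 919.58 CPM (42 counts) in a CV barcode of 45673 counts that also failed it and belonged to the run of adjoining numbers. Tas2r126 was at 54.789 CPM (224 counts) in a CV barcode of 4088415 counts that failed it as well. The cause of these values was not tested.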

How the results depend on the processing

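Over all alternatives no log2 ratio changed sign, but the order of the 2 shares of cells turned at 1 count, with 80.95% in FP and 75% in CV. The log2 ratio of the summed genes stayed between -2.86 and -2.49. The median over genes lay between -4.08 and -1.48, but the genes that met 10 CPM changed with the setting. It covered 8 genes in the main setting and 6 at the -1.48 bound, the mean CPM per cell. That bound leaves out Tas2r139 and Tas2r126, at -0.97 and -0.90, so the range does not hold for the same 8 genes. Of 100 values of single genes 0 were reversed, 59 were classed as moved and 41 as the same. In kept cells Tas2r144, Tas2r143, Tas2r135 and Tas2r119 had 0 counts in FP, and Tas2r137 had 0 in CV. Their signs could hardly change, so for them the lack of reversals is no evidence of stability. The summed log2 ratio of -2.51 became -2.77 with no Gnat3 limit, -2.86 without the cell with most counts, -2.82 with the 10% deepest cells left out, -2.64 in thinned cells and -2.67 with a pseudocount of 1 CPM. The median of -1.62 became -1.81 without those deepest cells and -4.08 with that pseudocount. Of the 8 genes at 2-fold, 5 stayed so without the top cell of each, 7 in thinned cells and 6 with the mean CPM per cell. The share of FP cells with 1 of the 10 genes on, 28.6%, was 80.95% at 1 count, 52.4% at 3 counts and 52.4% at 10 counts or more. That of CV cells, 62.5%, was 75%, 71.9% and 68.75% by the same rules and 41.07% with no Gnat3 limit. Reducing the run of adjoining barcodes to its deepest, an alternative chosen after seeing the data, left 60.7% of 28 CV cells. The cause of these shifts was not tested. Depth limits the absence of low genes in CV, where 7 cells held under 100000 counts. No paired analysis was possible because each papilla has 1 library.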
